A study of Mus musculus with 10 samples.

Results

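The chromatin around 6 genes of the Bcl2 family was described in thymic invariant natural killer T (iNKT) cells. Bcl2, Bcl2l1 (encoding Bcl-xL) and Mcl1 are prosurvival members. Bcl2l11 (Bim), Bbc3 (Puma) and Pmaip1 (Noxa) are proapoptotic BH3-only members. ATAC-seq gave the accessibility. In this assay a transposase cuts open DNA, and its cuts, called insertions, are counted within regions. Of the 94823 regions in the deposited table, 131 overlapped the body of 1 of the 6 genes or lay within 50 kb of its transcription start, and none was shared by 2 of the genes. Bcl2 held 39 of these regions, Mcl1 held 27, Bbc3 held 23, Bcl2l11 held 18, Bcl2l1 held 14 and Pmaip1 held 10. The member was also the gene with the nearest protein-coding start for 95 of the 131, so a region is named here by the locus it lies in and not as an element shown to act on that gene.

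The 10 libraries fall into 4 groups, with 2 libraries of iNKT1 cells and 3 of iNKT2 cells from BALB/c mice, and the same numbers from SKG mice. SKG mice are BALB/c mice with a hypomorphic mutation of Zap70, a kinase that acts directly below the T cell receptor, so the comparison between genotypes asks what a weaker receptor signal changes within a subset. The Zap70 mutation and any other sequence difference between the SKG and BALB/c mice cannot be told apart in this comparison. Per the methods, donors were 8 to 10 weeks old and a fixed number of sorted cells went into each library. Both subsets were gated as CD27+, with iNKT1 cells being CD122+ and iNKT2 cells CD122-. CD122 is encoded by Il2rb, which makes that gene part of the gate. The sources do not say whether the libraries of a group came from separate mice, so a p-value here measures only the spread between libraries. In bulk cells, a site open in fewer cells and a site less open in each cell cannot be told apart.

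As background, Bcl2 proteins decide whether the outer mitochondrial membrane is breached by Bax and Bak. Prosurvival members hold these pore formers and the BH3-only proteins in check, and BH3-only proteins release that hold. In T cells Bcl2 and Mcl1 sustain survival downstream of common-gamma cytokines such as IL-15, and Bim is the main trigger of death in strongly signaled thymocytes. IL-15 signals through CD122, and iNKT1 cells are known to depend on it.

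Library totals ranged from 14988590 to 36342635 insertions, and the median region held between 40 and 120. A region of the 6 genes held on average between 11.4 and 3740 insertions a library, with a median of 92.8, and all 131 averaged 10 or more. Levels are given as CPM, the insertions scaled to a common library total, after correction by the trimmed mean of M values (TMM). Marker genes were checked by their regions over the start. The iNKT1 genes Tbx21, Il2rb and Ifng summed to between 225 and 245 CPM in the 4 iNKT1 libraries and to between 75.4 and 112 in the 6 iNKT2 libraries. The sum of the iNKT2 genes Il4, Gata3 and Ccr7 did not separate the subsets, at 152 to 196 in iNKT1 and 143 to 187 in iNKT2. Gata3 made up most of it and had lower means in iNKT2 (BALB/c 120 and 99.8, SKG 139 and 116 for iNKT1 and iNKT2). Ccr7 had higher means in iNKT2 (BALB/c 16.9 and 23.2, SKG 14.8 and 40.8), and Il4 went from 22.5 to 23.0 in BALB/c and from 32.7 to 24.5 in SKG. Of iNKT17 genes, Il17a held at most 0.264 CPM in iNKT1, 4.49 to 6.18 in BALB/c iNKT2 and 0.624 to 1.75 in SKG iNKT2, and Il23r held at most 0.321 in iNKT1, 2.76 to 5.57 in BALB/c iNKT2 and 3.1 to 4.32 in SKG iNKT2. T cell genes (4 of 5 with a region, Trac having none) summed to between 100 and 150 CPM in every library. No region lay over the start of any of the 4 genes listed for double-positive thymocytes (Rag1, Rag2, Ptcra, Cd8b1) or of the B cell genes Cd79a, Ms4a1 and Pax5. Of the other lists, Itgam was the only 1 of 4 myeloid genes with a region (0 to 3.91 CPM), Ncr1 the only 1 of 2 for NK cells (0 to 2.27) and Epcam the only 1 of 3 for thymic epithelium (3.81 to 9.71).

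The 6 stretches below were chosen because each is the centre of a called region that carries 1 of the patterns described next. Each shows the plus strand, 5′ to 3′, of GRCm38.p6, the same assembly as mm10, and is 300 bases long. Capitals mark matches, on either strand, to short strings known from transcription factor binding. The E-box was searched as CAGGTG. The Runt string of Runx factors was searched as TGTGGTT. The ROR string, bound by nuclear receptors, was searched as AGGTCA. For Tcf factors a first string was CTTTGAN, and a further string that can cover the same bases was TTCAAAG. Names give the locus and a group pattern. SKG-high refers to iNKT2 cells only, where the region was called higher in SKG than in BALB/c. Both regions so named were also called lower in iNKT2 than in iNKT1 in BALB/c, and the Bcl2l1 region in SKG too.
Bcl2 intron, iNKT1-high, chr1:106612623-106612922: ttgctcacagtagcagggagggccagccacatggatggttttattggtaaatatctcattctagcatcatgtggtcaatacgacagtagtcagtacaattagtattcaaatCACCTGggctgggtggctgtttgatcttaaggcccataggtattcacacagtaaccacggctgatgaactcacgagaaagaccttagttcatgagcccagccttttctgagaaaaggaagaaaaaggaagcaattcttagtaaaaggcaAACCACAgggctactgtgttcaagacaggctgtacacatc
Bcl2 intron, SKG-high, chr1:106606936-106607235: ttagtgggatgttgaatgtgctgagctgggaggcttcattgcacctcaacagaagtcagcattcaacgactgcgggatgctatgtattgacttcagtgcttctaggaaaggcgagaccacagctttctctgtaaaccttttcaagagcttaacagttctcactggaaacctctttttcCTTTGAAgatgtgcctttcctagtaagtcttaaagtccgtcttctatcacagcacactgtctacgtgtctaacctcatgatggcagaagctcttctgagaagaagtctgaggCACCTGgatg
Bcl2l1 intron, SKG-high, chr2:152803124-152803423: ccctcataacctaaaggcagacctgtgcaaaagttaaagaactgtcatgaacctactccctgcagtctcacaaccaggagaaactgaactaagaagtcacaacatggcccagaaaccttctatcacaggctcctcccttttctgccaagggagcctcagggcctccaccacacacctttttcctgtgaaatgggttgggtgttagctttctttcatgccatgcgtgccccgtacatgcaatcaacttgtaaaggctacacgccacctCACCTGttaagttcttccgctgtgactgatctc
Bcl2l11 intron, iNKT1-high, chr2:128152329-128152628: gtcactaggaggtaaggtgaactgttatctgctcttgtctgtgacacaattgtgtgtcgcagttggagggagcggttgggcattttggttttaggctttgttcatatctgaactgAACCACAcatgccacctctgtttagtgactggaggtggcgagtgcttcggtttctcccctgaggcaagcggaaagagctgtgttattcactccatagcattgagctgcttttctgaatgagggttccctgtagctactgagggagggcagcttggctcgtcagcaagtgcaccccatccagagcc
Bcl2l11 upstream, SKG-low, chr2:128087027-128087326: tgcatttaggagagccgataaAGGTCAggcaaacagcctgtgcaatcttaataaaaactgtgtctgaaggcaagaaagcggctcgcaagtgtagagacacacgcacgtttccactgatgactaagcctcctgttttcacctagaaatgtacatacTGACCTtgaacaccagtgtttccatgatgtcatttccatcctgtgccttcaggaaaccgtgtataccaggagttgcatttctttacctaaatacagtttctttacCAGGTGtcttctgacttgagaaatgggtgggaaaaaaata
Bbc3 downstream, iNKT1-high, chr7:16332192-16332491: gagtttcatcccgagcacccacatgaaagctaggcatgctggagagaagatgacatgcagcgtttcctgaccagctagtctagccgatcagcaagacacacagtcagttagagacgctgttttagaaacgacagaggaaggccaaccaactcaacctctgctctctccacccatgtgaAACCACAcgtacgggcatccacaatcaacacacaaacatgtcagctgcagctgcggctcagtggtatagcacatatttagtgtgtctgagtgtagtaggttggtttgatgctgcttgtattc

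The E-box string stood in 4 of these 6 stretches and the Runt string in 3 of them. Over the central 300 bases of all 94823 regions, the E-box string was found in 22.7%, the Runt string in 13.2%, a Tcf string in 21.4% and the ROR string in 16.6%. Of the 131 regions of the 6 genes, 31 (23.7%) held the E-box string, 18 (13.7%) the Runt string, 27 (20.6%) a Tcf string and 20 (15.3%) the ROR string. The T-box string GGTGTGA was in 11 of the 131, against 5.49% of all regions. The ETS string CCGGAAG was in 7 of them, against 4.93%. The NFAT string GGAAANT was in 24, against 19.3%. The Egr string GTGGGCG was in 9, against 4.72%. An NF-kB string, either GGGANTTCC or GGGACTTTC, was in 5, against 2.16%. The AP-1 string TGANTCA was in 13, against 10.6%. The GATA string AGATAAG was in 7, against 4.19%. The FoxO string TGTTTAC was in 5, against 4.49%. A match describes the letters and shows no binding.

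Taken over all 6 genes, regions more accessible in iNKT1 cells outnumbered those more accessible in iNKT2 cells, although Pmaip1 went the other way in BALB/c. A region was called when its edgeR quasi-likelihood test, adjusted over all 94823 regions, gave p under 0.01 and the estimated change was at least 4-fold. In BALB/c cells, 26 of the 131 regions (19.8%) were called lower in iNKT2 than in iNKT1, where 6.36% of all regions were, and 8 (6.11%) were called higher, where 15.5% of all regions were. In SKG cells, 22 (16.8%) were called lower against a background of 6.96%, and 2 (1.53%) higher against 10.2%. At an adjusted p under 0.01 with no fold threshold, iNKT2 cells were lower at 73 regions and higher at 12 in BALB/c (backgrounds 23.4% and 25.7%), and lower at 57 and higher at 4 in SKG (17.6% and 18.4%). Over the 131 regions the median log2 change was -0.82 for BALB/c and -0.55 for SKG, beside 0.06 and 0.14 for all regions. Scaling by library totals moved the medians of all regions to 0.34 and 0.32 and those of the 131 to -0.53 and -0.36. Quantile normalization with voom gave 37 lower and 5 higher calls in BALB/c in place of 26 and 8. The higher calls in BALB/c numbered 4 without BALB/c iNKT1 replicate 1 and 5 without replicate 2, and those in SKG numbered 1 without either SKG iNKT1 library.

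**Figure D1:**
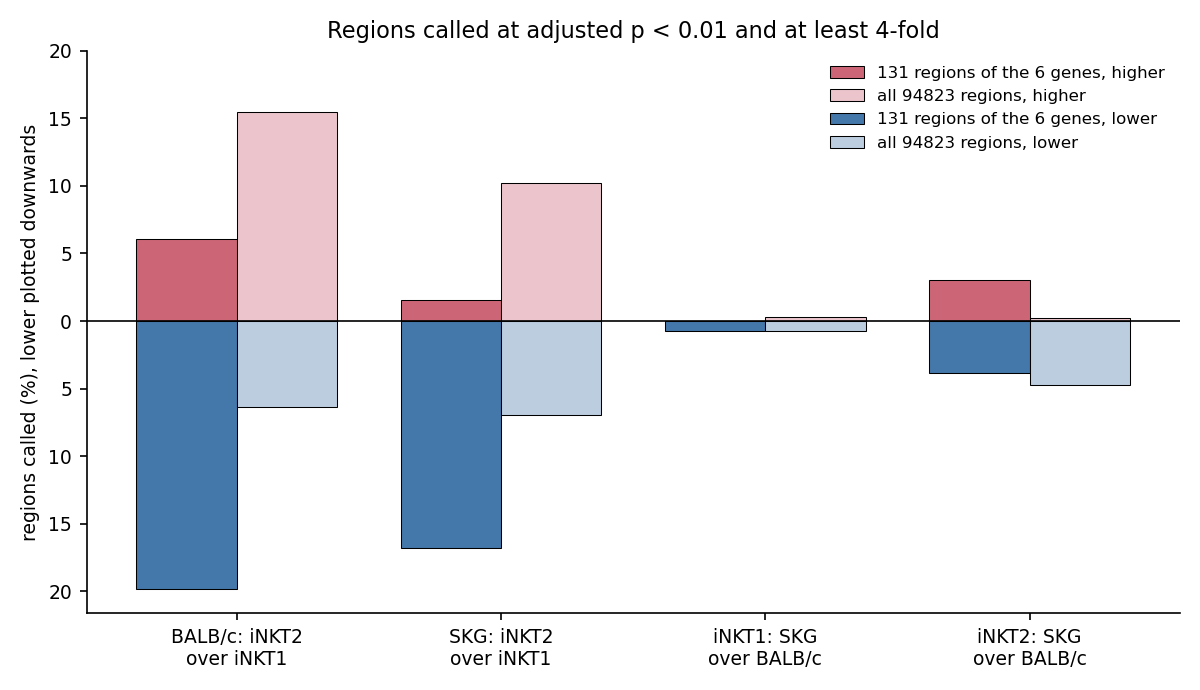
Share of regions called (%, vertical axis, lower calls plotted downwards) in the 4 comparisons (horizontal axis), for the 131 regions of the 6 genes in dark bars and for all 94823 regions in pale bars. The dark bar for lower calls reached 19.8% in BALB/c iNKT2 against iNKT1, beside 6.36% for all regions.

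Between genotypes the 6 loci changed little in iNKT1 cells and in both directions in iNKT2 cells. In SKG against BALB/c iNKT1, 1 of 131 regions was called lower and none higher (backgrounds 0.732% and 0.281%), with 1 region in each direction at an adjusted p under 0.01 by edgeR. In SKG against BALB/c iNKT2, 4 regions (3.05%) were called higher, where 0.252% of all regions were, and 5 (3.82%) were called lower, where 4.73% were. With no fold threshold, SKG was higher at 20 and lower at 11 (backgrounds 4.02% and 10.1%). After quantile normalization and voom the higher calls were 11 and the lower 5. The 4 higher calls lay in Bcl2 and Bcl2l1, and the 5 lower calls lay near Bcl2l11 and Pmaip1. Without BALB/c iNKT2 replicate 1 the higher calls numbered 8, and without SKG iNKT2 replicate 1 the lower calls numbered 8. The comparison of subsets in BALB/c and the comparison of genotypes in iNKT2 use the same BALB/c iNKT2 libraries, so their changes are not independent of each other.

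Whether the genotype change differed between subsets was tested directly, as the change in iNKT2 minus that in iNKT1. This difference was called higher at 2 regions, both in Bcl2 (background 0.189%), and lower at 1, in Pmaip1 (background 0.341%). At an adjusted p under 0.01 alone, 4 regions were higher and 3 lower (backgrounds 0.446% and 0.479%). These calls were close to the limits of the design. Between 0 and 2 higher calls and between 0 and 1 lower calls were left when 1 library was omitted, with no call in either direction without any 1 of BALB/c iNKT1 replicate 2, BALB/c iNKT2 replicates 2 and 3 or either SKG iNKT1 library. Scaling by library totals left none higher and 1 lower, and DESeq2 gave 2 higher and 3 lower. With a replicate block, which pairs libraries by their number, 2 were higher and 3 lower.

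**Figure D2:**
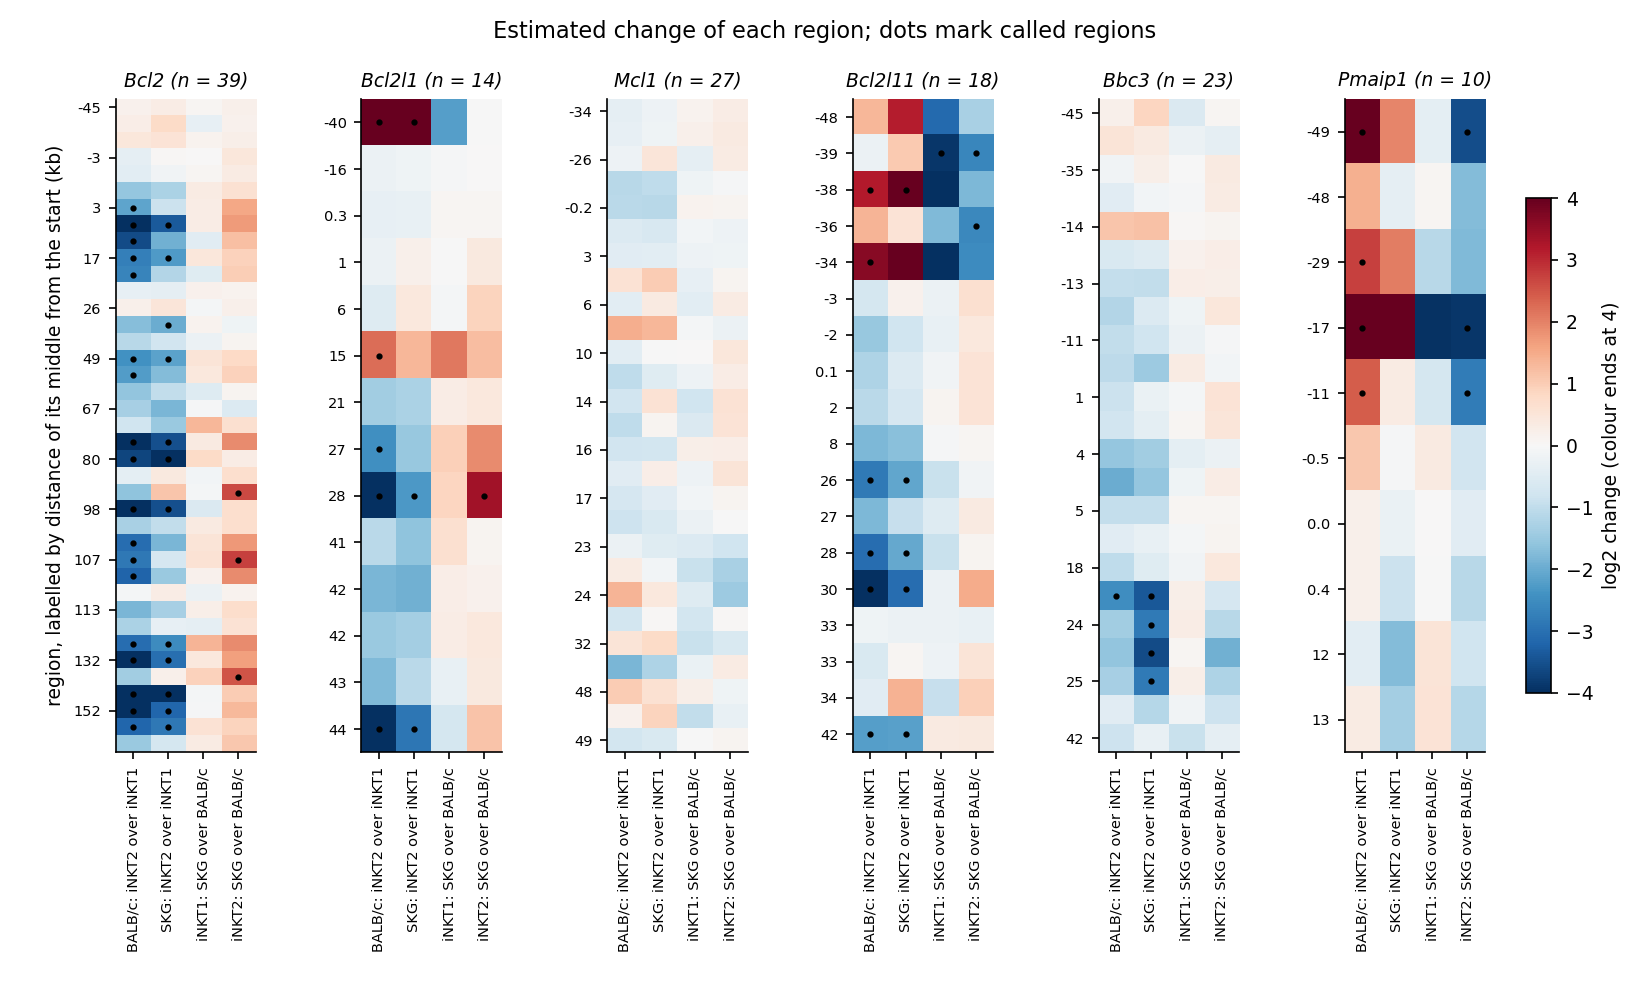
Estimated log2 change (colour, ending at 4 in either direction) of each of the 131 regions in the 4 comparisons (columns), with regions of each gene ordered by the distance of their middle from the transcription start (kb, vertical axis). Black dots mark called regions: 18 and 12 of them lie in the Bcl2 columns for iNKT2 over iNKT1 of BALB/c and SKG, and none at Mcl1.

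Regions over the starts of the 6 genes were open in every library, and none was called. The 7 regions over a member's own start and the 6 over the start of another gene in the windows had no call in any of the 4 comparisons, whereas the other 118 held all 34 calls of BALB/c iNKT2 against iNKT1. Of the 11953 regions over a protein-coding start in the whole table, 4.27% were called in that comparison in either direction. Per kb of region, the most accessible start region of each gene held a similar level in BALB/c iNKT1, from 72.8 ± 1.98 CPM per kb (SD, n = 2) at Bcl2l11 to 83.9 ± 0.427 at Bcl2. In BALB/c iNKT2 the levels spread out. Bcl2l11 was lowest at 30.7 ± 2.48 (n = 3), followed by Mcl1 at 35.3 ± 5.66 and Bbc3 at 41.3 ± 5.29, each overlapping its neighbour. Bcl2 at 62.8 ± 9.64 and Bcl2l1 at 63.3 ± 9.37 overlapped each other and lay above Bbc3 in every library, and Pmaip1 was highest at 85.0 ± 15.3, with a lowest library of 68.2 that overlapped the highest of Bcl2 at 71.5. In SKG iNKT2 the order ran from Mcl1 at 38.1 ± 10.5 to Bcl2 at 79.0 ± 13.1.

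Summed over all regions of a locus, 5 of the 6 genes were more accessible in iNKT1 than in iNKT2 cells in both genotypes, and Pmaip1 was the exception in BALB/c. The Bcl2 locus summed to 685 and 655 CPM in BALB/c iNKT1, to 776 and 803.0 in SKG iNKT1, to 314, 350.3 and 366 in BALB/c iNKT2 and to 418, 516 and 507 in SKG iNKT2. No 2 of these groups overlapped, and the SKG to BALB/c ratio was 1.4 in iNKT2 and 1.18 in iNKT1. Bcl2l11 summed to 362 ± 4.67 CPM (SD, n = 2) in BALB/c iNKT1, 312 ± 5.54 (n = 2) in SKG iNKT1, 147 ± 9.5 (n = 3) in BALB/c iNKT2 and 195 ± 3.33 (n = 3) in SKG iNKT2. The genotypes thus stood in opposite order in the 2 subsets at this locus. Pmaip1 summed to 56.5 and 56.8 CPM in BALB/c iNKT1, to 70.6 and 58.2 in SKG iNKT1, to 93.0, 97.8 and 108.0 in BALB/c iNKT2 and to 34.6, 44.9 and 44.6 in SKG iNKT2. Its SKG to BALB/c ratio was 0.415 in iNKT2. For Bcl2l1, Mcl1 and Bbc3 the ratio of iNKT2 to iNKT1 lay between 0.641 and 0.697 in BALB/c. In SKG it lay between 0.759 and 0.816. With TMM factors the subsets of a genotype did not overlap at these genes. With library totals in place of TMM factors, the SKG subsets overlapped at Mcl1. The SKG and BALB/c iNKT1 libraries overlapped at Mcl1 and at Bbc3. These sums carry no test, since an exact permutation test cannot give a two-sided p below 0.1 with 3 against 3 libraries or 0.2 with 2 against 3.

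**Figure D3:**
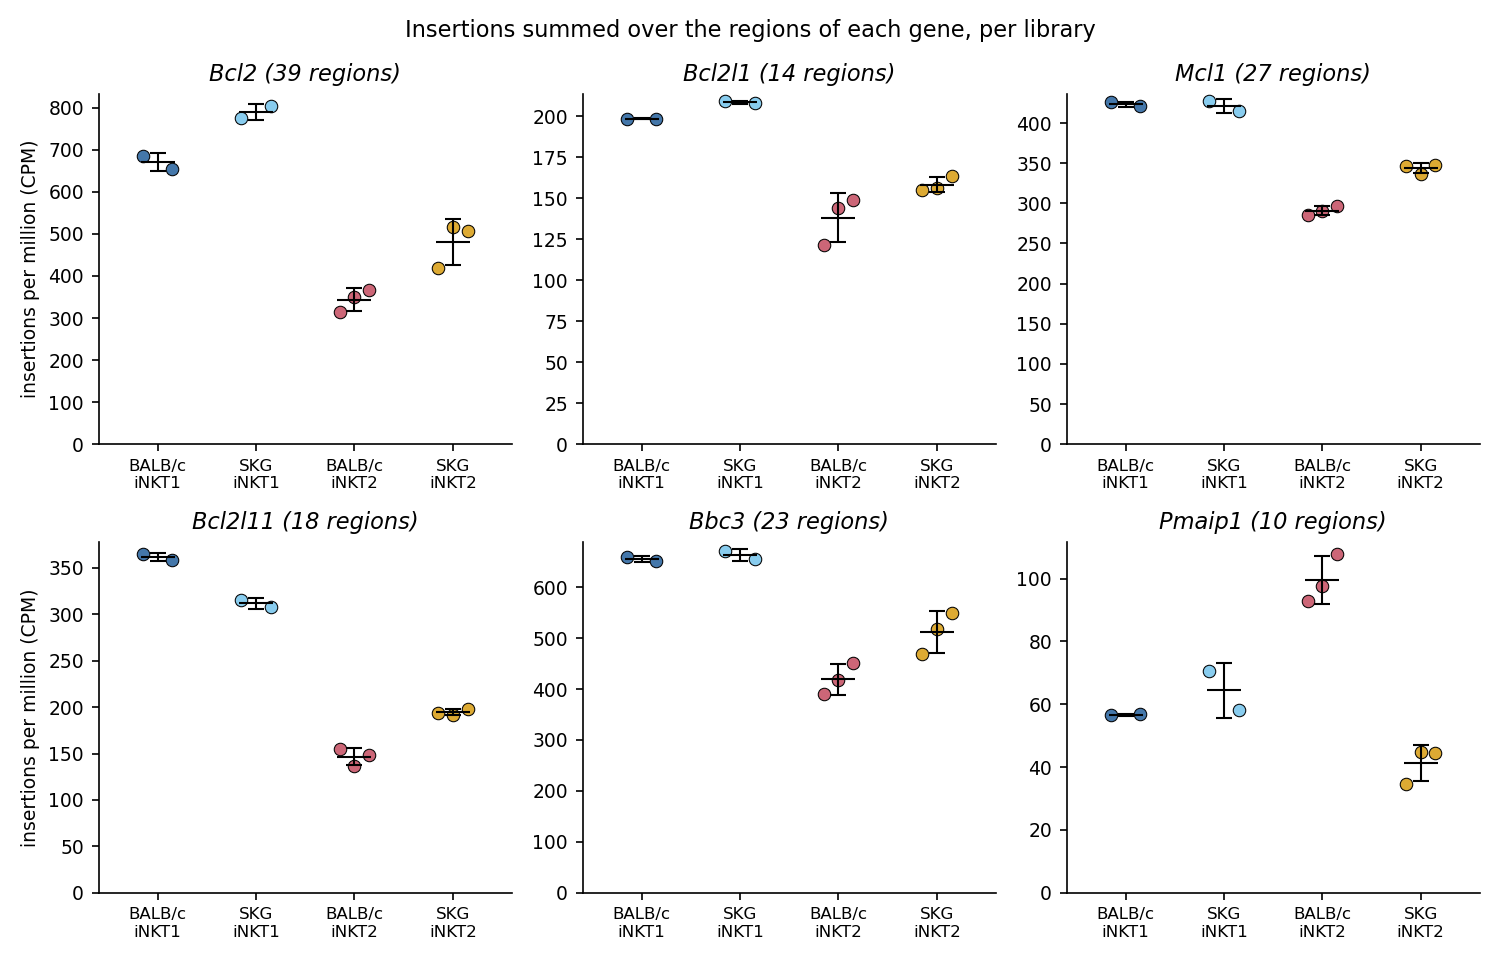
Level (CPM, vertical axis from 0) summed over the regions of each gene, 1 point per library, in the 4 groups (horizontal axis), with the mean as a line and the SD as error bars. Bcl2 lay between 314 and 803.0 CPM with iNKT1 libraries on top, and Pmaip1 was highest in BALB/c iNKT2, at 93.0 to 108.0 CPM.

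Bcl2, the founding prosurvival gene (chr1:106538178-106714274, minus strand, mm10), carried more calls than any other of the 6 genes between the subsets. Its 39 regions included 35 within the gene, 31 of them intronic. In BALB/c cells 18 (46.2%) were called lower in iNKT2 and none higher, where 6.36% and 15.5% of all regions were. In SKG cells 12 (30.8%) were called lower and none higher (backgrounds 6.96% and 10.2%). All 18 and all 12 lay within the gene. The start itself (chr1:106713837-106714983, covering 5′ untranslated sequence) held 95.8 and 96.5 CPM in BALB/c iNKT1, 98.9 and 102 in SKG iNKT1, 60.1, 73.9 and 82.0 in BALB/c iNKT2 and 73.3, 98.8 and 99.9 in SKG iNKT2. The subsets differed there by -0.42 on the log2 scale in BALB/c (edgeR adjusted p = 0.028) and by -0.15 in SKG (adjusted p = 0.45), and the SKG groups overlapped.

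The lowest adjusted p in both genotypes belonged to a region 3.88 kb into the gene that overlaps untranslated sequence (chr1:106710183-106710614). It held 10.7 and 10.1 CPM in BALB/c iNKT1, 13.0 and 12.8 in SKG iNKT1, 0.376, 0.397 and 0.371 in BALB/c iNKT2 and 1.52, 1.1 and 1.08 in SKG iNKT2. The region was nearly closed in iNKT2 cells, and no groups of different subsets overlapped. It fell by 4.75 ± 0.237 (log2, SE) in BALB/c iNKT2 and fell by 3.35 ± 0.215 in SKG iNKT2, with edgeR adjusted p of 4.0e-09 and 2.1e-08. Deeper in the same gene, 152 kb past the start, an intronic region (chr1:106562312-106562634) fell by 5.36 ± 0.387 in BALB/c iNKT2 and fell by 4.26 ± 0.375 in SKG iNKT2.

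The strongest intronic region by adjusted p, 102 kb past the start (chr1:106612348-106613198), is the first stretch printed above. It held 103 and 84.1 CPM in BALB/c iNKT1, 129.8 and 137 in SKG iNKT1, 13.5, 10.7 and 9.69 in BALB/c iNKT2 and 34.3, 42.5 and 35.9 in SKG iNKT2. All 4 groups were apart. It fell by 3.05 ± 0.159 in BALB/c iNKT2 (edgeR adjusted p = 4.3e-09). In SKG it fell by 1.83 ± 0.153, short of 4-fold.

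Along the intron, SKG iNKT2 cells were more open than BALB/c iNKT2 cells. Of the 39 Bcl2 regions, 37 had an estimate above 0, with a median log2 change of 0.72 beside 0.01 for all regions. The adjusted p threshold was passed by 12 (30.8%), all upward, where 4.02% of all regions passed it upward. Of the 39, 3 (7.69%) were called, where 0.252% of all regions were called higher. The 3 called regions lay 97.1, 107 and 136 kb past the start. The region at 107 kb (chr1:106606860-106607312, the second stretch above) held 14.6 and 13.2 CPM in BALB/c iNKT1, 20.4 and 20.9 in SKG iNKT1, 2.7, 1.59 and 1.4 in BALB/c iNKT2 and 15.4, 11.8 and 11.1 in SKG iNKT2. The 3 SKG iNKT2 libraries were therefore near the iNKT1 level, and the 3 BALB/c iNKT2 libraries stood alone below. It was higher in SKG iNKT2 by 2.75 ± 0.225 (edgeR adjusted p = 9.2e-07), and the genotype change exceeded that in iNKT1 by 2.18 ± 0.329 (adjusted p = 0.0027), the lowest adjusted p for this difference among the 131 regions.

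The region at 97.1 kb (chr1:106616920-106617434) held 2.36 and 5.91 CPM in BALB/c iNKT1, 4.43 and 3.21 in SKG iNKT1, 1.82, 0.926 and 1.24 in BALB/c iNKT2 and 10.0, 6.48 and 8.43 in SKG iNKT2. Here SKG iNKT2 was above all other libraries. It was higher than BALB/c iNKT2 by 2.65 ± 0.331 (edgeR adjusted p = 3.8e-05), and the genotype changes differed by 2.74 ± 0.513 (adjusted p = 0.0088). The region at 136 kb (chr1:106577730-106578272) was higher in SKG iNKT2 by 2.53 ± 0.231, with 5.97 to 10.1 CPM against 1.13 to 1.57. Without BALB/c iNKT2 replicate 1, which had the highest level of that group at the 107 kb and 97.1 kb regions, the Bcl2 calls numbered 6 in place of 3. In iNKT1 cells a single Bcl2 region passed the adjusted p threshold between genotypes, 119 kb past the start (chr1:106595270-106595675), with 3.05 and 3.57 CPM in BALB/c and 7.32 and 9.56 in SKG (log2 1.35 ± 0.264, edgeR adjusted p = 0.0065), under 4-fold.

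**Figure D4:**
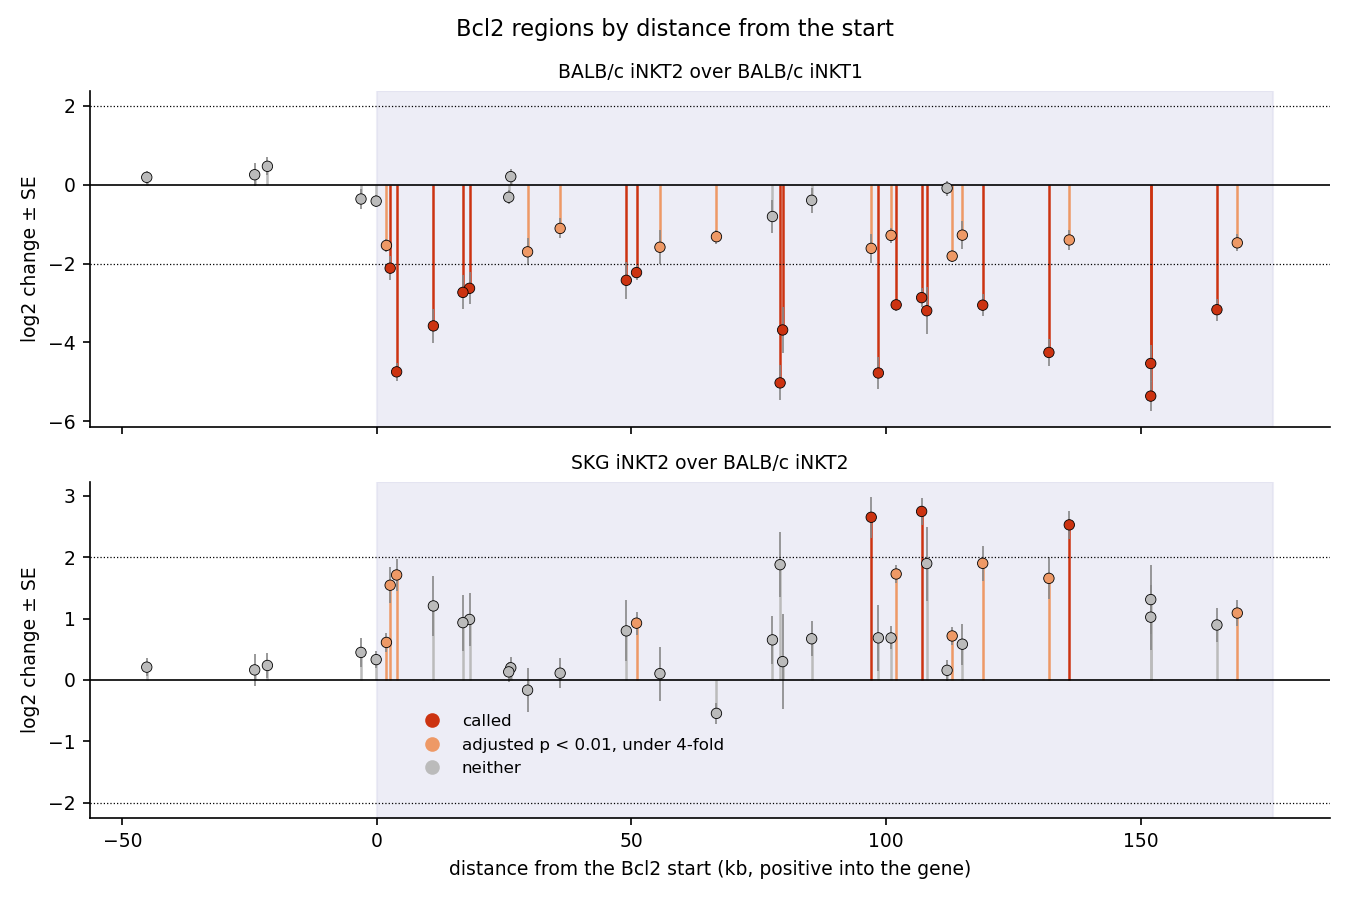
Log2 change with its SE (vertical axis) of the 39 Bcl2 regions against their distance from the start (kb, horizontal axis, positive into the shaded gene body), for BALB/c iNKT2 over iNKT1 (top) and SKG over BALB/c iNKT2 (bottom). Dotted lines mark 4-fold: 18 regions were called below it in the top panel and 3 above it in the bottom panel, between 97.1 and 136 kb.

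The sum of the iNKT1 marker genes was 77.2, 75.4 and 79.7 CPM in the BALB/c iNKT2 libraries and 112, 77.0 and 82.3 in the SKG iNKT2 libraries. SKG iNKT2 replicate 1 had the highest sum of these 6. Most of the sum came from Il2rb, part of the gate, with means of 65.9 CPM in BALB/c iNKT2 and 78.9 in SKG iNKT2. The other genes of the list had near-equal means in BALB/c and SKG iNKT2, at 8.72 and 8.53 for Ifng and 2.81 and 3.06 for Tbx21. In the fit without SKG iNKT2 replicate 1, 3 Bcl2 regions were called higher in SKG than in BALB/c iNKT2. The part of iNKT1 cells in these differences was not tested.

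Bcl2l1 encodes the prosurvival Bcl-xL, which protects double-positive thymocytes (chr2:152780668-152831728, minus strand). Its main start region (chr2:152830927-152831921) held 80.7 and 76.9 CPM in BALB/c iNKT1, 84.6 and 81.3 in SKG iNKT1, 52.6, 65.4 and 70.8 in BALB/c iNKT2 and 62.5, 68.4 and 70.5 in SKG iNKT2. The subsets did not overlap, yet the log2 differences of -0.33 ± 0.136 and -0.31 ± 0.137 had edgeR adjusted p of 0.048 and 0.075. A neighbouring region over an alternative start, 1.17 kb into the gene, differed by -0.22 in BALB/c and 0.19 in SKG (adjusted p = 0.27 and 0.37).

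Of its 14 regions, 3 (21.4%) were called lower and 2 (14.3%) higher in BALB/c iNKT2 (backgrounds 6.36% and 15.5%). In SKG iNKT2 2 (14.3%) were called lower and 1 (7.14%) higher (backgrounds 6.96% and 10.2%). The shares of higher calls were thus no larger than those of all regions. The intronic region 28.5 kb past the start (chr2:152803119-152803429, the third stretch above) held 1.94 and 2.42 CPM in BALB/c iNKT1, 3.85 and 4.11 in SKG iNKT1, 0.125, 0.0529 and 0.0412 in BALB/c iNKT2 and 0.713, 0.964 and 0.742 in SKG iNKT2. All 4 groups were apart at low depth. It fell by 4.78 ± 0.436 in BALB/c iNKT2 and fell by 2.30 ± 0.33 in SKG iNKT2 (edgeR adjusted p = 3.0e-07 and 3.3e-05), and was higher in SKG than in BALB/c iNKT2 by 3.35 ± 0.464 (adjusted p = 9.6e-05). This was the 1 call between genotypes at Bcl2l1.

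In the opposite direction, a region 40.2 kb before the start (chr2:152871822-152872121) lies in an intron of Tpx2, a spindle assembly gene whose start is nearer. It held 1 insertion over the 2 BALB/c iNKT1 libraries and 131 over the 3 BALB/c iNKT2 libraries, a depth-corrected ratio of 78.3 with an exact 95% interval of 13.8 to 3120 that covers counting error only. It held 0 insertions in SKG iNKT1 and 94 in SKG iNKT2, at least 14.2-fold higher when 3 insertions over the group are taken as the limit, and at least 11.1-fold higher by the lower end of the exact 95% interval. Both were called (edgeR adjusted p = 1.7e-05 and 6.6e-05). The other higher call in BALB/c iNKT2, 15.3 kb past the start (chr2:152816243-152816542), held 0.119 and 0.176 CPM in BALB/c iNKT1, 0.45 and 0.834 in SKG iNKT1, 0.784, 0.979 and 0.247 in BALB/c iNKT2 and 2.05, 1.42 and 1.35 in SKG iNKT2. Its change of 2.23 ± 0.657 was not called without either BALB/c iNKT1 library, without BALB/c iNKT2 replicate 1 or 2, without SKG iNKT2 replicate 3, in a fit of only the groups compared or by either voom fit.

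Mcl1, a short-lived prosurvival protein required by nearly all lymphocytes (chr3:95658788-95663176, plus strand), had 27 regions and no call in any comparison. In BALB/c, 11 regions (40.7%) were lower and 1 (3.7%) higher in iNKT2 at an adjusted p under 0.01 (backgrounds 23.4% and 25.7%). In SKG 6 (22.2%) were lower, close to the background of 17.6%, and 1 (3.7%) was higher, where 18.4% of all regions were. Its regions had a median log2 change of -0.45 in BALB/c cells and -0.10 in SKG cells, the latter turning to 0.10 with library totals. The start (chr3:95658312-95658911) held 47.9 and 42.0 CPM in BALB/c iNKT1, 50.7 and 49.1 in SKG iNKT1, 24.4, 17.6 and 21.6 in BALB/c iNKT2 and 30.0, 20.3 and 18.3 in SKG iNKT2. Every iNKT1 library was above every iNKT2 library, and the genotypes overlapped in iNKT2. The start fell by 1.08 ± 0.186 in BALB/c iNKT2 and fell by 1.12 ± 0.189 in SKG iNKT2 (edgeR adjusted p = 0.00013 and 0.00016), while SKG and BALB/c differed by 0.15 in iNKT1 (adjusted p = 0.8) and 0.12 in iNKT2 (adjusted p = 0.65).

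The lowest adjusted p at Mcl1 in BALB/c belonged to a region 39.0 kb past the start (chr3:95697591-95697966), nearer to the start of Adamtsl4. It held 7.5 and 8.42 CPM in BALB/c iNKT1 and 3.23, 1.96 and 1.48 in BALB/c iNKT2, and fell by 1.82 ± 0.258 (edgeR adjusted p = 2.1e-05). That change was past 4-fold without BALB/c iNKT2 replicate 1 (log2 -2.17) and after quantile normalization with voom (log2 -2.01). A region 10.3 kb past the start (chr3:95668631-95669645) was the 1 Mcl1 region to pass between genotypes in iNKT2, at 29.4, 31.7 and 31.8 CPM in BALB/c and 45.9, 39.8 and 40.0 in SKG (log2 0.44 ± 0.112, adjusted p = 0.0091). At 14.4 kb (chr3:95672845-95673460) the genotypes stood in opposite order in the 2 subsets. It held 31.4 and 36.4 CPM in BALB/c iNKT1 against 17.2 and 22.3 in SKG iNKT1, and 21.1, 21.2 and 16.9 in BALB/c iNKT2 against 26.0, 27.0 and 36.1 in SKG iNKT2. The genotype changes differed by 1.36 ± 0.251 (edgeR adjusted p = 0.0082), although neither change passed within its subset. It was -0.78 ± 0.196 within iNKT1 (adjusted p = 0.029) and 0.58 ± 0.158 within iNKT2 (adjusted p = 0.013).

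Bcl2l11, whose product Bim neutralizes the prosurvival proteins (chr2:128126038-128162547, plus strand), was more open in iNKT1 over its start and introns. The start (chr2:128125564-128126754) held 85.1 and 88.4 CPM in BALB/c iNKT1, 79.5 and 78.6 in SKG iNKT1, 37.0, 33.4 and 39.2 in BALB/c iNKT2 and 50.8, 58.0 and 52.7 in SKG iNKT2. No groups overlapped. It fell by 1.25 ± 0.122 in BALB/c iNKT2 and fell by 0.55 ± 0.123 in SKG iNKT2 (edgeR adjusted p = 5.6e-07 and 0.0015), and was higher in SKG than in BALB/c iNKT2 by 0.56 ± 0.112 (adjusted p = 0.0018). The genotype changes at the start differed by 0.69 ± 0.175 between the subsets (adjusted p = 0.037), which missed the 0.01 threshold.

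Of the 18 Bcl2l11 regions, 4 (22.2%) were called lower in iNKT2 in each genotype (backgrounds 6.36% in BALB/c and 6.96% in SKG). These were 3 intronic regions and 1 past the gene's end at 42.3 kb (chr2:128168150-128168478). The region of lowest adjusted p, 26.4 kb past the start (chr2:128152284-128152675, the fourth stretch above), held 17.9 and 16.3 CPM in BALB/c iNKT1, 8.67 and 9.88 in SKG iNKT1, 3.32, 1.61 and 2.39 in BALB/c iNKT2 and 2.76, 1.7 and 2.02 in SKG iNKT2. The iNKT1 genotypes were apart, and the iNKT2 genotypes overlapped. It fell by 2.81 ± 0.257 in BALB/c iNKT2 and fell by 2.07 ± 0.274 in SKG iNKT2 (edgeR adjusted p = 3.0e-07 and 1.5e-05). The SKG call sat at the fold threshold, with log2 changes of -1.98 and -1.91 when SKG iNKT1 replicate 2 or SKG iNKT2 replicate 2 was left out, -1.88 with library totals and -1.92 with quantile normalization and voom, none of them called. Without SKG iNKT2 replicate 2, 1 of the 4 lower calls in SKG was left, and without SKG iNKT1 replicate 2, 2 were.

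A separate group of 5 regions lay 33.7 to 47.6 kb before the start, all in introns of Acoxl, an acyl-CoA oxidase-like gene. All 5 had lower means in SKG than in BALB/c in both subsets. The region at 38.9 kb (chr2:128087014-128087341, the fifth stretch above) held 4.99 and 4.72 CPM in BALB/c iNKT1, 0.45 and 0.192 in SKG iNKT1, 5.61, 3.25 and 3.38 in BALB/c iNKT2 and 0.654, 0.735 and 0.607 in SKG iNKT2. It was open in all 5 BALB/c libraries and nearly closed in all 5 SKG libraries, whichever the subset. The log2 change in SKG was -3.90 ± 0.439 in iNKT1 and -2.60 ± 0.3 in iNKT2 (edgeR adjusted p = 0.0001 and 1.8e-05). The iNKT1 change was the 1 genotype call in that subset among the 131 regions, and was not called after quantile normalization with voom (log2 -3.08). At 35.6 kb (chr2:128090281-128090596) the level was 1.91, 1.61 and 1.65 CPM in BALB/c iNKT2 and 0.357, 0.413 and 0 in SKG iNKT2 (log2 -2.57 ± 0.507, adjusted p = 0.0017).

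The region at 37.7 kb before the start (chr2:128088162-128088483) was called higher in iNKT2 in both genotypes. It held 0.149 and 0.397 CPM in BALB/c iNKT1, 0 and 0 in SKG iNKT1, 2.2, 2.94 and 1.94 in BALB/c iNKT2 and 1.13, 0.505 and 0.202 in SKG iNKT2. In SKG it was at least 6.36-fold higher in iNKT2, against 3 insertions over the iNKT1 group, and at least 6.03-fold higher by the lower end of the exact 95% interval. The BALB/c change was 3.18 ± 0.599 (edgeR adjusted p = 0.00034) and was not called without BALB/c iNKT1 replicate 1. The SKG call (adjusted p = 0.0025) was lost without either SKG iNKT1 library and by both voom fits.

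Bbc3, encoding the p53 target Puma (chr7:16308393-16318205, plus strand), was also more open in iNKT1, mostly by less than 4-fold. In BALB/c 16 of its 23 regions (69.6%) were lower and 1 (4.35%) higher in iNKT2 at an adjusted p under 0.01 (backgrounds 23.4% and 25.7%). In SKG 12 (52.2%) were lower and none higher (backgrounds 17.6% and 18.4%). The region over an annotated start (chr7:16309190-16309735) held 41.5 and 41.0 CPM in BALB/c iNKT1, 41.5 and 37.3 in SKG iNKT1, 19.8, 25.5 and 22.4 in BALB/c iNKT2 and 31.8, 31.6 and 34.8 in SKG iNKT2. It fell by 0.87 ± 0.135 in BALB/c iNKT2 (edgeR adjusted p = 4.9e-05) and fell by 0.27 ± 0.137 in SKG iNKT2 (adjusted p = 0.11). SKG iNKT2 was above BALB/c iNKT2 by 0.53 ± 0.123 (adjusted p = 0.005).

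Calls at Bbc3 were confined to a cluster 22.1 to 24.7 kb past its start, within Sae1, which encodes a subunit of the SUMO-activating enzyme. In SKG iNKT2 4 regions of this cluster were called lower, 17.4% of the 23 Bbc3 regions against a background of 6.96%. In BALB/c iNKT2 1 was (4.35%), below the background of 6.36%. That one (chr7:16330117-16330785), which overlaps coding sequence of Sae1, held 17.2 and 14.7 CPM in BALB/c iNKT1, 17.0 and 20.8 in SKG iNKT1, 3.67, 3.31 and 1.48 in BALB/c iNKT2 and 2.14, 1.84 and 1.21 in SKG iNKT2. It fell by 2.48 ± 0.278 in BALB/c and fell by 3.40 ± 0.3 in SKG (edgeR adjusted p = 2.2e-06 and 3.0e-07). Next to it, an intronic region of Sae1 23.9 kb past the Bbc3 start (chr7:16332106-16332578, the sixth stretch above) held 6.93 and 7.19 CPM in BALB/c iNKT1, 7.39 and 7.38 in SKG iNKT1, 3.2, 2.09 and 1.77 in BALB/c iNKT2 and 0.654, 0.689 and 0.472 in SKG iNKT2. The iNKT1 libraries lay within 0.5 CPM of each other, and SKG iNKT2 was lowest. It fell by 3.56 ± 0.291 in SKG iNKT2 (adjusted p = 1.5e-07). Between genotypes in iNKT2 the log2 change was -1.92 ± 0.282 (adjusted p = 0.00016), short of 4-fold, and the test of the difference between subsets had an adjusted p of 0.011. The genotype change in iNKT2 passed 4-fold without BALB/c iNKT2 replicate 2 or 3 or SKG iNKT2 replicate 2, and with library totals (log2 -2.06). The Bbc3 region of lowest adjusted p between genotypes in iNKT1, 41.8 kb past the start (chr7:16349927-16350443), held 10.8 and 7.98 CPM in BALB/c and 3.98 and 6.22 in SKG (log2 -0.89 ± 0.293, adjusted p = 0.1).

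Pmaip1, encoding Noxa, which binds Mcl1 (chr18:66458533-66465565, plus strand), showed the opposite pattern to the other 5 loci in BALB/c cells. Of its 10 regions 4 (40%) were called higher in BALB/c iNKT2 than in iNKT1 and none lower (backgrounds 15.5% and 6.36%). Between the SKG subsets none was called (backgrounds 10.2% higher and 6.96% lower). In SKG against BALB/c iNKT2 3 (30%) were called lower, where 4.73% of all regions were. All 10 had an estimate below 0 between genotypes in iNKT2, with a median log2 change of -1.44 beside 0.01 for all regions. The adjusted p threshold was passed by 7 (70%), where 10.1% of all regions passed it as lower. The start (chr18:66458380-66458696) differed little. It held 23.0 and 23.5 CPM in BALB/c iNKT1, 25.6 and 21.6 in SKG iNKT1, 21.6, 28.1 and 31.1 in BALB/c iNKT2 and 16.2, 21.5 and 21.3 in SKG iNKT2, with an edgeR adjusted p of 0.3 between the BALB/c subsets and 0.043 between genotypes in iNKT2.

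All 4 calls lay upstream. The region 10.6 kb before the start (chr18:66447618-66448155) held 2.48 and 2.25 CPM in BALB/c iNKT1, 1.41 and 1.48 in SKG iNKT1, 13.6, 11.9 and 12.9 in BALB/c iNKT2 and 1.43, 1.79 and 2.43 in SKG iNKT2. The 3 BALB/c iNKT2 libraries stood alone above all the others. It was higher in BALB/c iNKT2 than in iNKT1 by 2.43 ± 0.232 (edgeR adjusted p = 4.6e-07) and changed by -2.81 ± 0.209 in SKG against BALB/c iNKT2 (adjusted p = 4.3e-07). The difference of genotype changes (iNKT2 less iNKT1) was -2.09 ± 0.365 (adjusted p = 0.006). In iNKT1 the genotypes differed by -0.71 ± 0.291 (adjusted p = 0.21), which was the lowest adjusted p at Pmaip1 in that comparison.

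The region 49.2 kb before the start (chr18:66409098-66409576) lies just inside the 50 kb window. It held 0.538 and 0.573 CPM in BALB/c iNKT1, 0.321 and 0.513 in SKG iNKT1, 22.5, 15.5 and 18.6 in BALB/c iNKT2 and 2.2, 0.735 and 1.82 in SKG iNKT2. It was higher in BALB/c iNKT2 by 5.08 ± 0.382 (edgeR adjusted p = 5.2e-08) and changed by -3.54 ± 0.286 in SKG against BALB/c iNKT2 (adjusted p = 8.1e-07). The region at 16.6 kb (chr18:66441819-66442118) had 2.45, 1.14 and 0.907 CPM in BALB/c iNKT2 and 0.149, 0.0918 and 0 in SKG iNKT2 (log2 -3.90 ± 0.662, adjusted p = 0.00064). In the other direction, a region 12.3 kb past the start (chr18:66470601-66470975) held 14.6 and 12.3 CPM in SKG iNKT1 and 3.0, 4.68 and 4.58 in SKG iNKT2 (log2 -1.74 ± 0.232, adjusted p = 1.6e-05). The iNKT17 marker Il17a moved with the Pmaip1 upstream regions, at 4.49 to 6.18 CPM in BALB/c iNKT2 and 0.624 to 1.75 in SKG iNKT2, whereas the genotypes overlapped at Il23r. The part of such cells in these differences was not tested.

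**Figure D5:**
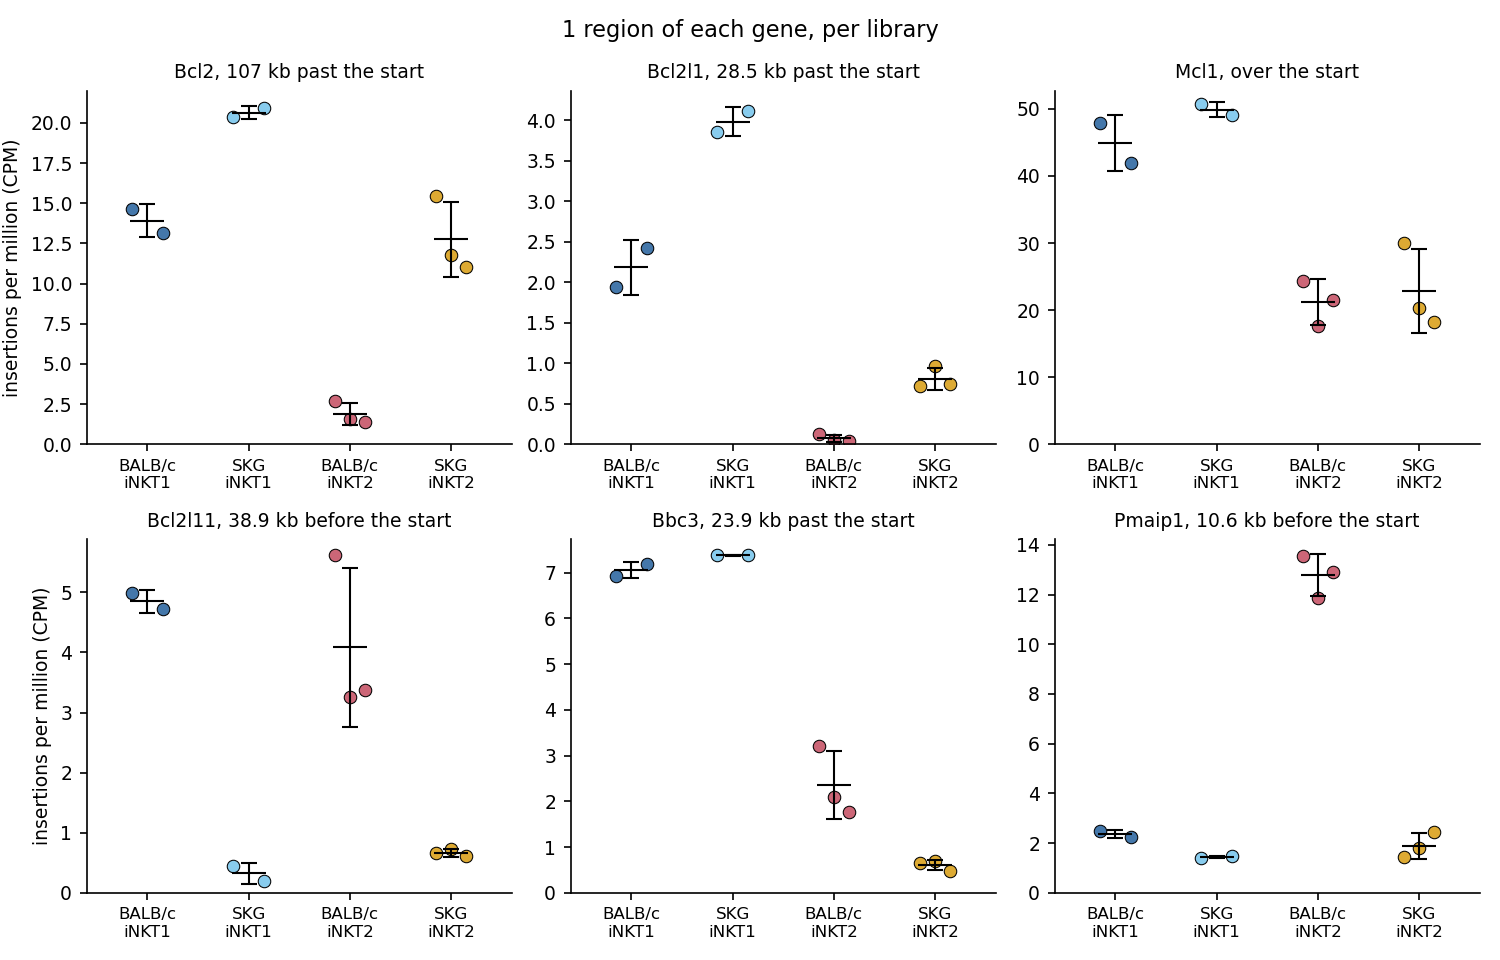
Level (CPM, vertical axis from 0) of 1 region of each gene, 1 point per library, in the 4 groups (horizontal axis), with the mean as a line and the SD as error bars. BALB/c iNKT2 stood alone below the other groups at the Bcl2 region 107 kb past the start and alone above them at the Pmaip1 region 10.6 kb before the start.

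Shares of strings in the called regions rest on few regions. Among the 26 regions called lower in BALB/c iNKT2, 7 held the Runt string (26.9%) and 4 the T-box string (15.4%), where 13.2% and 5.49% of all regions did. Over the 6029 regions called lower anywhere, the shares were 23.5% and 15.7%. None of the 26 held the NFAT or the Egr string, which stood in 17.3% and 1.81% of those 6029. The 26 include neighbouring regions of 1 gene.

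The 170 regions of 16 further family genes had 22 calls higher and 5 lower in BALB/c iNKT2 against iNKT1, where 15.5% and 6.36% of all regions were called. In SKG they had 17 higher and 6 lower, where 10.2% and 6.96% of all regions were. Their shares of higher calls were thus near those of all regions. Their median log2 changes were -0.08 and 0.02. In SKG against BALB/c iNKT2 they had 5 calls lower and none higher (backgrounds 4.73% and 0.252%), and in iNKT1 1 higher and none lower (0.281% and 0.732%). None of these regions was shared with the 6 genes. Bcl2a1a, a prosurvival gene, had 3 of 3 regions called higher in BALB/c iNKT2 with a median of 7.72, and 2 of the 3 called lower in SKG than in BALB/c iNKT2. Bcl2a1a, Bcl2a1b and Bcl2a1d are near-identical copies, and reads were kept only when they mapped to 1 place, so values at these genes are uncertain. Bmf, a BH3-only gene, had 3 of 8 regions called higher in iNKT2 in each genotype, and Bak1, a pore former, had 2 of 17 called lower in BALB/c iNKT2, and 3 lower and 1 higher in SKG iNKT2.

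Of 12 regions over the starts of these genes, 7 were lower and 1 higher in BALB/c iNKT2 at an adjusted p under 0.01. Over all regions, 23.4% were lower and 25.7% higher. The share over all start regions was not taken at this threshold, so these counts are not shown to be particular to the family. Among the pore formers, Bax had a mean of 22.0 CPM in BALB/c iNKT1 and 11.8 in BALB/c iNKT2 (log2 -0.89, edgeR adjusted p = 0.0022), and Bak1 had 17.1 and 8.93 (log2 -0.94, adjusted p = 0.00048). The start of Bcl2l14 went the other way, from 9.52 to 27.2 (log2 1.51, adjusted p = 8.8e-06).

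The genes whose start regions followed a member most closely over the 10 libraries were found among the 11953 start regions, by Pearson's r of log2 CPM. They were Rock1, Rab33b and Bnip3l for Bcl2 (r = 0.995, 0.992 and 0.991), Pole with Pxmp2, Snx3 and Slc35b3 for Bcl2l1 (0.991, 0.983 and 0.979), and Lypla2, Ttc25 and Cisd3 for Mcl1 (0.994, 0.994 and 0.993). For Bcl2l11 they were Tmem87a with Ganc, Dgkz and Lzts3 (0.994, 0.994 and 0.991), for Bbc3 Rpl21, Tln1 with Creb3, and Slc25a45 (0.983, 0.981 and 0.98), and for Pmaip1 Cdkl4, Ndufb6 and Plscr1 (0.918, 0.901 and 0.9). These values rest on 10 libraries of 4 groups that share depth and group differences, and they are the highest of many.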

How the data were processed

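ATAC-seq libraries of sorted thymic iNKT1 and iNKT2 cells were compared. Per the methods, the authors mapped reads to mm10 with Bowtie 1.0 (1 place only), removed mitochondrial and duplicate reads, called MACS2 summits, and merged widened summits into regions. The deposited counts are the transposase insertions per region and library as whole numbers. The table's name calls them normalized, but every value is whole and library totals differ, so they were treated as raw counts. If they had been scaled before deposit, the counting errors given here would be off. Region widths were 300 to 2093 bases around the 6 genes. The authors' test was voom with limma.

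Here region positions were set against GENCODE mouse release 21 (GRCm38), with 1-based coordinates. edgeR 4.0.16 (R 4.3.3) fitted quasi-likelihood models to the deposited counts of all 94823 regions and 10 libraries, with TMM factors and 1 mean per group, and p-values were Benjamini-Hochberg adjusted over all regions. A call needed an adjusted p under 0.01 and 4-fold. The fit was tested on simulated data. Limma 3.58.1 and DESeq2 1.42.0 were alternatives. Intervals and limits (3 insertions over a group) cover counting error only. Depth, 14988590 to 36342635 insertions a library, left the weakest regions at about 11 insertions.

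Named for each gene were its start regions and, per comparison and direction, the called region of lowest adjusted p, or the lowest if none was called. Further regions (called ones beside these, and those passing the test of the difference of genotype changes) were added after their values were seen. The 6 genes and the lists were chosen with earlier results of these data known. Promoter and start sequences, and any on chromosome 18, are not printed, and some genes of the lists are not reported here.

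Replicate numbers are shared between groups. Deviations from the group means of same-numbered BALB/c and SKG iNKT2 libraries correlated at r = 0.436, 0.129 and 0.147, above 0.1 in each. These were therefore treated as pairs in an alternative fit with a replicate block. Differently numbered iNKT2 libraries gave 0.191 (BALB/c replicate 3, SKG replicate 2) and 0.13 (BALB/c replicate 2, SKG replicate 3). Those that set replicate 1 of a genotype against another number gave -0.315 to -0.216. Only replicate 1 was thus set apart by its number. Same-numbered iNKT1 libraries gave r = -0.00252 and libraries of different subsets at most 0.0826.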

Additional observations from a re-analysis of the deposited data

Results flagged for a closer look

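At 7 regions of the 6 genes the genotype change in iNKT2 cells differed from that in iNKT1 cells by edgeR's test of the difference itself (adjusted p under 0.01 over all regions). At Bcl2 the difference (iNKT2 minus iNKT1, log2) was 2.18 at the region starting at chr1:106606860, 1.22 at chr1:106612348 and 2.74 at chr1:106616920, with more open chromatin in SKG iNKT2. At Mcl1 it was 1.36 at chr3:95672845, where the SKG mean was lower in iNKT1 and higher in iNKT2. Neither change passed within its subset (edgeR adjusted p = 0.029 in iNKT1 and 0.013 in iNKT2). At Pmaip1 it was -1.80 at chr18:66410406, -2.09 at chr18:66447618 and -1.71 at chr18:66471080, with less open chromatin in SKG iNKT2. No group held 4 libraries, so no test for a library far from its group was possible.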

How the results depend on the processing

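Counts are of the 131 regions, called higher or lower. With 1 library left out, the range for BALB/c iNKT2 against iNKT1 was 4 to 8 higher and 24 to 28 lower, for SKG iNKT2 against iNKT1 1 to 3 higher and 16 to 23 lower, for SKG against BALB/c iNKT1 0 higher and 1 lower, for SKG against BALB/c iNKT2 4 to 8 higher and 5 to 8 lower, and for the difference of genotype changes 0 to 2 higher and 0 to 1 lower. Where this left 1 library in a group, that library was assumed to vary like the others. Quantile normalization with voom gave 5 higher for BALB/c subsets, 1 higher for SKG subsets, 0 lower for iNKT1 genotypes, 11 higher for iNKT2 genotypes and 1 higher for the difference. Voom on TMM factors gave 1 higher for SKG subsets, and 1 higher and 0 lower for the difference. Library totals gave 0 higher for the difference, and DESeq2 gave 3 lower. At adjusted p under 0.05 and 2-fold the counts were 14 higher and 60 lower for BALB/c subsets, 10 and 47 for SKG subsets, 1 higher for iNKT1 genotypes, 14 and 14 for iNKT2 genotypes, and 7 and 6 for the difference. At adjusted p under 0.01 alone they were 73 lower for BALB/c subsets, 4 higher and 57 lower for SKG subsets, 1 higher for iNKT1 genotypes, 20 and 11 for iNKT2 genotypes, and 4 and 3 for the difference. A 10 kb window gave 1 higher for BALB/c subsets, 0 higher for SKG subsets, 0 lower for either genotype comparison and 0 lower for the difference, since it holds fewer regions. A 100 kb window gave 2 lower for iNKT1 genotypes. Regions nearest to the member's own start gave 1 higher for SKG subsets. Beyond those settings that change the threshold or the window, the cause of these differences was not tested.

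With the replicate block, the difference of genotype changes had 2 higher and 3 lower in place of 2 and 1, and iNKT2 genotypes had 4 higher and 6 lower. For the subset comparisons, whose libraries share only a number, it gave 8 and 26 in BALB/c and 2 and 23 in SKG. Of the alternatives for single named regions, 587 kept both direction and side of the threshold, 34 lost the call, 6 gained it and none turned in direction. Of the alternatives for summed levels, 30 were counted as moved and 18 as the same. The scaling moved the split over all regions: 14725 higher and 6029 lower in BALB/c subsets became 9042 and 8966 after quantile normalization, and 9654 and 6599 in SKG subsets became 4244 and 7011. In iNKT1 genotypes 266 and 694 became 138 and 129, and in iNKT2 genotypes 239 and 4488 became 1173 and 3469. Voom on TMM factors gave 6128 and 6497 in SKG subsets and 202 and 276 in iNKT1 genotypes.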
